A study of Mus musculus with 4 samples.

Results

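Interferon-stimulated genes are genes whose transcription rises when a cell responds to an interferon, and 48 of them were followed here through mouse bone marrow progenitors of 4 genotype groups. The set was chosen by name: 49 symbols were listed, and every symbol with a row among the 32285 genes of the deposited matrices was taken, which left out Mx1 (not analysed here). No value of these data entered the choice of a member, although the list was drawn up with earlier results of the same data known.

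CD45.2+Kit+ cells were sorted from bone marrow 10 weeks after transplantation and read by CITE-seq, which counts transcripts and barcoded surface antibodies in the same cell (10x Genomics 3′ chemistry). CD45.2 marks, in such transplants, one of the forms of the leukocyte surface protein CD45, and Kit is a receptor of early haematopoietic cells. There was 1 library for each of the 4 groups control, Mll3SI, Mll4SI and Mll3/4SI, which the labels also name wt, mll3KI, mll4KI and dKI. The series title places the groups in a study of the histone methyltransferases MLL3 and MLL4 (genes Kmt2c and Kmt2d) in stem cell, myeloid and B-cell identity. The labels do not spell out SI, and give no number of animals, no sex, no batch and no meaning for the 2 hashtag antibodies. With 1 library per group no difference below has a replicate check, so values are given without tests. Where a sentence lists 4 values without naming libraries, they stand in the order control, Mll3SI, Mll4SI, Mll3/4SI, and a ratio in parentheses after them is the log2 ratio of Mll3/4SI to control. Intervals in square brackets are exact 95% Poisson or Clopper-Pearson limits that cover counting error only.

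Interferons are secreted in response to viral nucleic acid and other danger signals. Type I interferons bind the receptor Ifnar1/Ifnar2, whose kinases activate transcription factors that bind, with Irf9, a promoter sequence called the interferon-stimulated response element. Interferon gamma, made mainly by T and NK cells, acts on another sequence, the gamma-activated site. In bone marrow, interferon is known to push stem cells out of quiescence when exposure is brief and to impair them when it persists, and stem cells are known to keep a basal level of some of these genes.

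After filters 6743 control, 8023 Mll3SI, 10186 Mll4SI and 6755 Mll3/4SI cells remained, with a median of 17003, 13619, 12799.5 and 19172 UMIs (unique molecular identifiers, the counted transcript molecules) per cell. Cells were clustered without the interferon-stimulated genes and clusters were named from marker genes, so every name is a rebuilt one. HSC/MPP-like cells (stem cells and multipotent progenitors) numbered 976, 971, 901 and 360 in the order control, Mll3SI, Mll4SI and Mll3/4SI, and granulocyte-monocyte-like cells 4946, 6191, 8711 and 4361. In Mll3/4SI 1757 cells stayed unnamed against 189 in control, most of them in cluster 14 (948 Mll3/4SI cells and 1 control cell) and cluster 20 (689 and 0). Different clusters held most granulocyte-monocyte-like cells of each library: those of control lay mainly in clusters 1, 2, 4 and 10, those of Mll3SI in 2, 1, 6 and 4, those of Mll4SI in 0, 3, 9 and 21, and those of Mll3/4SI in 16, 19, 1 and 23. Kmt2c stood at 129.5, 110.2, 147.5 and 123.2 CPM (UMIs of a gene per 1000000 UMIs of the same cells) over all kept cells and Kmt2d at 41.5, 38.0, 35.0 and 33.3, but 3′ tags say nothing about an altered part elsewhere in the gene. Kit, the gate's own marker, was present at 111.8, 100.3, 100.9 and 109.0 CPM, and Ptprc, the gene of CD45, at 222.1, 178.6, 312.9 and 210.8 CPM. Xist, expressed from the inactive X chromosome of female cells, was at most 0.21 CPM in control and Mll3SI and between 1163 and 1460 CPM in Mll4SI and Mll3/4SI, so the sex of the cells and the genotype cannot be told apart when either of the latter is set against control.

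The promoters of the set carry the response element far more often than promoters at large, and 5 are shown. Of these, 3 are of the RNA enzyme group (Ifit1, Oas3 and Rsad2), and the others are Isg15 and the GTPase gene Gbp3. In Mll3/4SI, Gbp3 was not higher than in control among pooled granulocyte-monocyte-like cells or HSC/MPP-like cells. The sequences are the 150 bases before the transcription start in RefSeq on build GRCm38.p6, written 5′ to 3′ on the strand of the gene. Capitals mark the core of that element, searched as GAAA, any 2 bases and GAAA, or as TTTC, any 2 bases and TTTC where the match lies on the opposite strand, with overlapping matches run together.
Isg15: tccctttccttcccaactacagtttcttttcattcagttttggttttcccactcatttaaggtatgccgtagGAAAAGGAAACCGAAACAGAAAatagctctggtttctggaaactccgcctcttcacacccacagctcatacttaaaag
Ifit1: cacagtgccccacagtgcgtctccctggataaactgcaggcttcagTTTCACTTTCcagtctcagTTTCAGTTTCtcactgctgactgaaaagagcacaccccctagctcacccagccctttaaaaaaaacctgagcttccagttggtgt
Oas3: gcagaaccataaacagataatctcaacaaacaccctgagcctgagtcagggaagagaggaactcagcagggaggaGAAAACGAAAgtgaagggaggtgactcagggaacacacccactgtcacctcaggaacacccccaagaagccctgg
Rsad2: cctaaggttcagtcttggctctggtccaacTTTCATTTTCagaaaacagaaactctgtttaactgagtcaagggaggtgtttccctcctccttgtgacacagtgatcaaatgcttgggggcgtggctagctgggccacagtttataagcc
Gbp3: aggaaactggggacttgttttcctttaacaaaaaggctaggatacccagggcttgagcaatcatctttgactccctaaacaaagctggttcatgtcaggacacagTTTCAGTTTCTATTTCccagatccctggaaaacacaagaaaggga
The Isg15 window (chr4:156200819-156200968, minus strand) held 3 overlapping matches, the first starting 78 bases before the transcription start. Ifit1 (chr19:34640739-34640888, plus strand) had 2 separate matches on the opposite strand, Oas3 (chr5:120777660-120777809, minus strand) 1 match, Rsad2 (chr12:26456453-26456602, minus strand) 1 match on the opposite strand and Gbp3 (chr3:142559894-142560043, plus strand) 2 overlapping ones. RefSeq windows of 300 bases (250 before and 50 after the start) were found for 38 of the 48 genes. The core occurred on either strand in 21 of these 38 genes (55.3%), against 3.99% of 27025 genes with a window. The gamma-activated core TTCNNNGAA, which is its own reverse complement, occurred in 10 of the 38 (26.3%) against 9.55% of all genes, and 6 genes held both. A match in these letters is a description of the sequence, not a site shown to be used.

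Summed over the 48 genes, the transcripts were most abundant in Mll3/4SI in every named class. In HSC/MPP-like cells they made up 1729 CPM in control, 1731 in Mll3SI, 1582 in Mll4SI, against 2333 in Mll3/4SI, and the ratio of Mll3/4SI to control was 1.35 [1.33, 1.37]. In granulocyte-like cells, the neutrophil precursors, the level was 998 CPM in control, 841 in Mll3SI, 1082 in Mll4SI, against 1867 in Mll3/4SI, a ratio of 1.87 [1.85, 1.89]. Monocyte-like cells held 1578, 1478, 1548 and 2178 CPM in the same order. The other 3 libraries lay closer to one another than to Mll3/4SI in these classes, but were not level. Mll3SI and Mll4SI had ratios to control of 0.843 and 1.08 for granulocyte-like and of 1.001 and 0.915 for HSC/MPP-like cells.

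The smaller classes showed the same order for the highest library. Dendritic-like cells had the highest level of the named classes in control and Mll3/4SI, at 3308 CPM in control, 2133 in Mll3SI, 2637 in Mll4SI, against 8885 in Mll3/4SI (ratio to control 2.69 [2.53, 2.86]), from 53, 38, 25 and 30 cells. T/NK-like cells stood at 2451, 1825, 3092 and 6109 CPM (2.49 [2.27, 2.75]) from 27, 12, 22 and 47 cells. B-lymphoid-like, erythroid-like and basophil/mast-like cells of Mll3/4SI had ratios to control of 1.48, 1.74 and 1.498. Dendritic precursors and T and NK cells are a minority in a Kit+ sort, and few cells stand behind their values.

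**Figure D1:**
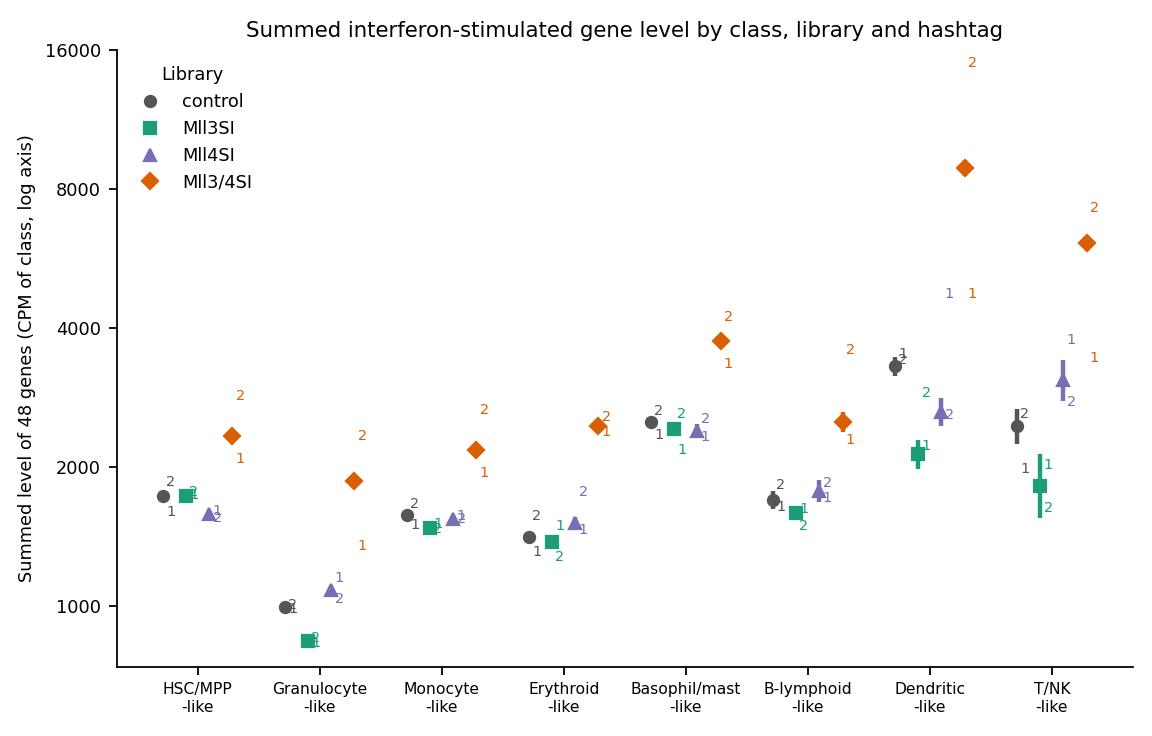
Summed level of the 48 interferon-stimulated genes (CPM, logarithmic axis) in 8 cell classes, with 1 symbol per library, its 95% counting interval, and digits for the Hashtag1 and Hashtag2 cells of that library where there were at least 5. The Mll3/4SI symbol is the highest in each class, from 1867 CPM in granulocyte-like to 8885 CPM in dendritic-like cells.

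A few abundant members carried the sum. Over all control cells Ly6e, a lipid-anchored surface protein, supplied 18.0% of the UMIs of the set, Ifitm3 15.8%, Sp100 9.22%, Slfn2 6.95% and Bst2 6.73%, together 56.7%. In granulocyte-monocyte-like cells Ifitm3 alone made up 363.1 of the 768.4 CPM by which Mll3/4SI exceeded control (47.3%). The excess in HSC/MPP-like cells, 604.4 CPM, was spread more widely, with 18.8% from Ifitm3 and 16.7% from Ly6e. Without Ifitm3 the ratios were 1.44 in granulocyte-monocyte-like and 1.32 in HSC/MPP-like cells.

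Gene by gene, the difference between Mll3/4SI and control was broad in direction and uneven in size. Of the 45 members with at least 1 CPM in the HSC/MPP-like cells of control, 41 were higher in Mll3/4SI, with a median log2 ratio of 0.51 against -0.05 over all 12390 genes under the same filter. Ratios are log2 of CPM + 1 over control CPM + 1, which understates the change of rare transcripts. At least 2-fold higher were 11 members, and 0 were 2-fold lower, while 0.565% of all genes were 2-fold higher and 0.734% lower. Among granulocyte-monocyte-like cells 35 of 38 members were higher, with a median of 0.52 against -0.09 over 11611 genes, 11 rose at least 2-fold and 0 fell, against 0.749% and 0.81% of all genes. The members under 1 CPM in control were Ifit3, Ifit3b and Ifi204 in HSC/MPP-like cells, and these with Ifit1, Oasl1, Ifi44, Rtp4, Usp18, Rsad2 and Slfn5 in granulocyte-monocyte-like cells. Over all 48, Mll3/4SI had the highest level for 41 in the first class and 44 in the second. The share of all genes with their highest level in that library was not computed.

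**Figure D2:**
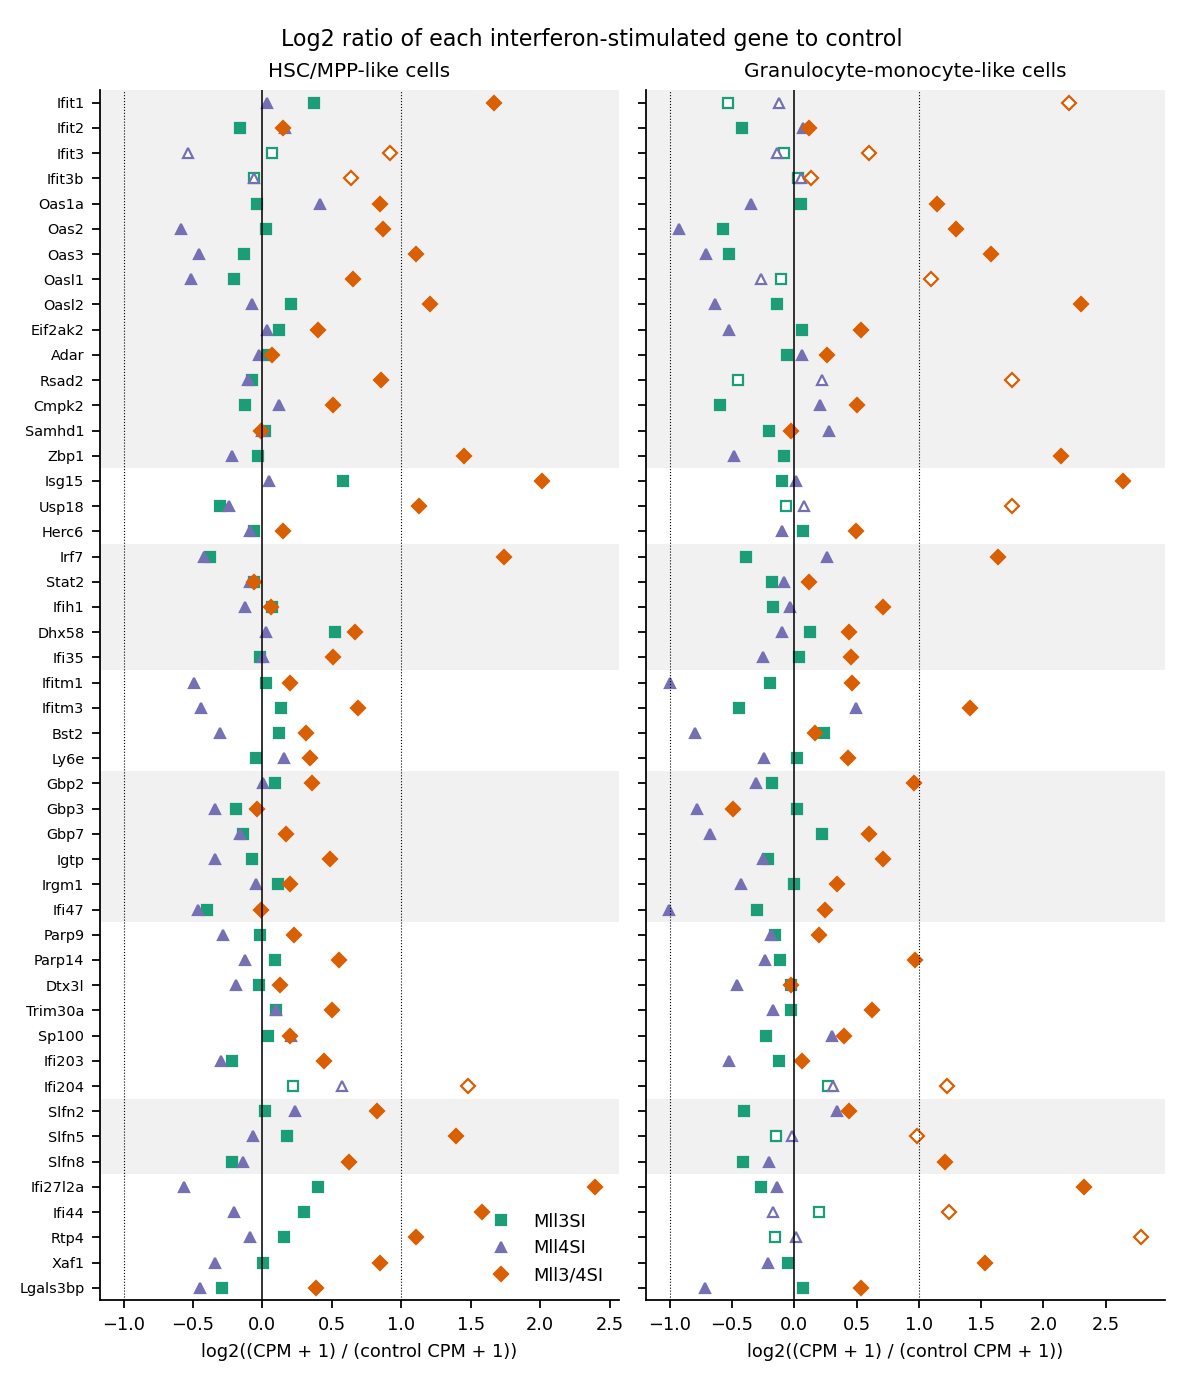
Log2 ratio to control of each of the 48 genes in HSC/MPP-like and granulocyte-monocyte-like cells, with 1 symbol per library, open where control was under 1 CPM, dotted lines at 2-fold and shading by role. Mll3/4SI reaches 2.40 for Ifi27l2a in the first class and, in the second, 2.64 for Isg15 among filled symbols and 2.79 for Rtp4 among open ones, while Mll3SI and Mll4SI stay within 2-fold for the filled symbols of the first class.

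The granulocyte-monocyte class pools cells that differ in these genes, and its makeup differed: 802 of 4946 control cells and 339 of 4361 Mll3/4SI cells were monocyte-like. Taken alone, granulocyte-like cells had a median log2 ratio of 0.82 in Mll3/4SI over 38 members, with 16 at least 2-fold higher against 1.07% of all genes, and monocyte-like cells 0.54 over 40 members, with 10 against 0.474%. Ly6e shows the effect of pooling. In granulocyte-like cells it stood at 66.1 CPM in control, 70.5 in Mll3SI, 34.6 in Mll4SI, against 182.5 in Mll3/4SI, a log2 ratio of 1.45 [1.403, 1.499] for Mll3/4SI. In monocyte-like cells, where it was far more abundant, it stood at 526.1, 482.3, 612.0 and 635.5 CPM (0.27 [0.23, 0.32]), and the pooled ratio was 0.43.

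The proteins that bind RNA or act on RNA and nucleotides were the largest role group. In HSC/MPP-like cells 12 of the 13 measured members were higher in Mll3/4SI, 4 of them at least 2-fold, with a median log2 ratio of 0.84. Ifit1, which binds RNA with an incompletely methylated cap, was at 1.99 CPM in control, 2.86 in Mll3SI, 2.06 in Mll4SI, against 8.52 in Mll3/4SI (log2 ratio of Mll3/4SI to control 1.67 [1.20, 2.18]). Mll3/4SI was the only library past 2-fold for this gene, but its hashtags were not both above every hashtag of the other libraries. Oasl2, of the oligoadenylate synthetase family that alerts RNase L to double-stranded RNA, was at 10.2, 12.0, 9.64 and 24.9 CPM (1.21 [0.95, 1.46]). Oas3 of the same family, whose promoter match is shown above, was at 2.94, 2.59, 1.87 and 7.48 CPM (1.11 [0.68, 1.56]). Zbp1, a sensor of left-handed double helices that can start necroptosis, was at 2.29, 2.21, 1.82 and 7.996 CPM (1.45 [0.9965, 1.93]). Each of these 4 rose in Mll3/4SI, and none did in Mll3SI or Mll4SI.

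The other measured members of the group stayed under 2-fold. Oas1a, at 5.23, 5.07, 7.29 and 10.2 CPM in HSC/MPP-like cells, had a log2 ratio of 0.84 [0.49, 1.21] in Mll3/4SI and 0.41 in Mll4SI. Rsad2 (viperin), which makes a chain-terminating nucleotide, was at 2.55, 2.37, 2.30 and 5.40 CPM (0.85). Eif2ak2, the kinase PKR that halts translation, was at 43.9, 47.7, 45.0 and 58.4 CPM (0.40). Other members of the group lay close in control and Mll3/4SI: Samhd1, which destroys deoxynucleotides, was at 52.3, 53.1, 52.2 and 52.0 CPM (-0.01 [-0.16, 0.14]), and the RNA editing enzyme Adar at 28.5, 29.3, 28.0 and 29.9 CPM (0.07). Ifit2 also lay close in all libraries, at 11.1, 9.76, 12.5 and 12.4 CPM (0.15). Ifit3 and Ifit3b, near-identical neighbours on chromosome 19 between which reads may be split, had 12, 11, 1 and 18 UMIs and 1, 0, 0 and 6 UMIs in all HSC/MPP-like cells.

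In granulocyte-monocyte-like cells 9 of 10 measured members of the group were higher in Mll3/4SI and 5 rose 2-fold. Oasl2 went from 1.99 CPM in control, 1.71 in Mll3SI and 0.915 in Mll4SI to 13.8 in Mll3/4SI (2.31 [2.09, 2.53]). Zbp1 was at 1.33, 1.20, 0.670 and 9.26 CPM (2.14 [1.89, 2.40]). For Oas3 the levels were 3.42, 2.07, 1.70 and 12.2 CPM (1.58 [1.41, 1.75]), and for Oas2 3.55, 2.06, 1.39 and 10.2 CPM (1.30 [1.13, 1.47]). The 4 synthetase family members with a measurable control level in this class had their lowest values in Mll4SI and their highest in Mll3/4SI. Ifit1, under the filter in control, had 0.721, 0.192, 0.576 and 6.93 CPM. Samhd1 again differed little between control and Mll3/4SI, at 45.9, 39.7, 55.7 and 45.0 CPM.

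The ISG15 system attaches the ubiquitin-like protein Isg15 to other proteins during an interferon response. Isg15 itself was at 5.36, 8.52, 5.57 and 24.6 CPM in HSC/MPP-like cells (2.01 [1.71, 2.32] in Mll3/4SI) and at 2.68, 2.44, 2.71 and 21.9 CPM in granulocyte-monocyte-like cells (2.64 [2.45, 2.83]). Mll3/4SI stood far above the rest in both classes. Usp18, which removes Isg15 and restrains the type I receptor, was at 4.49, 3.45, 3.65 and 11.01 CPM in HSC/MPP-like cells (1.13 [0.76, 1.503]) and at 0.876, 0.791, 0.983 and 5.31 CPM in granulocyte-monocyte-like cells. Herc6, the ligase for Isg15 in mouse, differed by less than 2-fold, with log2 ratios of 0.15 and 0.50.

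Among sensing and signalling genes Irf7 moved most. This transcription factor, which amplifies the production of type I interferon, was at 2.46, 1.67, 1.58 and 10.6 CPM in HSC/MPP-like cells (1.74 [1.31, 2.20]) and at 1.39, 0.823, 1.86 and 6.43 CPM in granulocyte-monocyte-like cells (1.64 [1.40, 1.89]). Both of the classes had Mll3/4SI as the only library past 2-fold. Stat2, a transcription factor activated at the type I receptor, was nearly level at 15.9, 15.2, 14.9 and 15.2 CPM in HSC/MPP-like cells (-0.06 [-0.33, 0.20]) and at 15.4, 13.5, 14.4 and 16.7 CPM in granulocyte-monocyte-like cells (0.12). Ifih1 (the RNA sensor MDA5) was at 10.3, 9.07, 10.0 and 17.6 CPM in the latter class (0.71 [0.60, 0.83]) and differed by 0.06 in the former. Dhx58, a related helicase, was at 6.05, 9.11, 6.19 and 10.2 CPM in HSC/MPP-like cells, a log2 ratio of 0.67 [0.32, 1.02] in Mll3/4SI and 0.52 in Mll3SI.

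Membrane proteins were the most abundant members and had modest ratios in HSC/MPP-like cells. Ifitm3, which blocks the fusion of viruses with endosomes, was at 184.1 CPM in control, 202.0 in Mll3SI, 135.3 in Mll4SI, against 297.6 in Mll3/4SI (0.69 [0.62, 0.76]). Granulocyte-monocyte-like cells held 218.5, 160.1, 307.8 and 581.6 CPM of it (1.41 [1.38, 1.43]), a rise past 2-fold, but the log2 ratio averaged over clusters shared by both libraries was 0.73. Ly6e was at 374.3, 363.1, 417.8 and 475.3 CPM in HSC/MPP-like cells (0.34 [0.29, 0.40]). Bst2 (tetherin, which holds budding virus at the cell surface) was at 153.5, 166.9, 123.8 and 191.0 CPM (0.31), and Ifitm1 at 154.9, 158.1, 109.5 and 177.6 CPM (0.20). For Ifitm1, Ifitm3 and Bst2 the lowest library in HSC/MPP-like cells was Mll4SI.

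The interferon-inducible GTPases attack vacuoles that hold microbes. In HSC/MPP-like and granulocyte-monocyte-like cells they did not follow the RNA enzymes in size: 0 of 6 rose 2-fold in either class. Gbp3 was at 33.4, 29.2, 26.2 and 32.4 CPM in HSC/MPP-like cells (-0.04 in Mll3/4SI) and at 15.9, 16.1, 8.80 and 10.95 CPM in granulocyte-monocyte-like cells (-0.50 [-0.60, -0.39]), the lowest ratio of any member there. Within the parts of that class it was at 7.25, 7.17, 2.07 and 6.31 CPM in granulocyte-like cells (-0.18) and at 43.4, 41.2, 36.3 and 45.0 CPM in monocyte-like cells (0.05), so the pooled difference was larger than in either part. Ifi47, also known as IRG-47, was at 60.0, 45.2, 43.1 and 59.7 CPM in HSC/MPP-like cells (-0.01). Gbp2 was the nearest to 2-fold in these classes, at 1.71, 1.39, 1.19 and 4.27 CPM in granulocyte-monocyte-like cells (0.96). The few dendritic-like cells differed, with Mll3/4SI ratios of 3.42 for Ifi47, 2.71 for Gbp7 and 1.79 for Irgm1. Gbp2 had 1.61, Gbp3 1.52 and Igtp -0.155 there, where 9.82% of all genes were at least 2-fold higher.

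Nuclear proteins and the ubiquitin and ADP-ribose enzymes were higher in Mll3/4SI for 6 of 6 members in HSC/MPP-like cells (median 0.34) and 5 of 6 in granulocyte-monocyte-like cells (0.30), with 0 past 2-fold. Parp14, an ADP-ribosyltransferase, came closest at 8.94, 8.19, 7.45 and 18.5 CPM in granulocyte-monocyte-like cells (0.97 [0.86, 1.09]). Sp100, a constituent of nuclear bodies, was at 79.5, 81.7, 91.9 and 91.5 CPM in HSC/MPP-like cells, and Mll4SI was as high as Mll3/4SI. Ifi203 was at 99.4, 85.1, 80.5 and 135.6 CPM there (0.45), whereas Dtx3l, a ubiquitin ligase, was at 15.7, 15.4, 11.2 and 15.4 CPM in granulocyte-monocyte-like cells (-0.03).

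Of the Schlafen family Slfn5 rose in HSC/MPP-like cells, from 2.42, 2.86 and 2.26 CPM in control, Mll3SI and Mll4SI to 7.996 in Mll3/4SI (1.40 [0.95, 1.87]). Slfn8 was at 3.64, 2.49, 3.03 and 9.72 CPM in granulocyte-monocyte-like cells (1.21). Slfn2, known for keeping T cells quiescent, was rare in HSC/MPP-like cells (5.79, 5.88, 7.01 and 11.01 CPM, 0.82 [0.48, 1.17]) and abundant in granulocyte-monocyte-like cells (124.5, 93.8, 158.4 and 169.2 CPM, 0.44). Its Mll4SI ratio in HSC/MPP-like cells, 0.24, was -0.16 when cells carrying both hashtags were removed.

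The remaining members included the largest ratios. Ifi27l2a (chr12:103442167-103443680 on GRCm38, minus strand), which encodes a small hydrophobic protein, was at 7.65 CPM in control, 10.4 in Mll3SI, 4.85 in Mll4SI, against 44.6 in Mll3/4SI among HSC/MPP-like cells (2.40 [2.15, 2.65]). In granulocyte-monocyte-like cells it was at 5.77, 4.63, 5.14 and 32.8 CPM (2.32 [2.19, 2.46]). No other library came near Mll3/4SI. Rtp4, a chaperone of membrane receptors, was at 11.1, 12.5, 10.3 and 24.9 CPM in HSC/MPP-like cells (1.10 [0.85, 1.36]) but had 67, 53, 90 and 991 UMIs among granulocyte-monocyte-like cells (0.743, 0.567, 0.763 and 11.02 CPM). Ifi44 was at 5.96, 7.55, 5.04 and 19.8 CPM in HSC/MPP-like cells (1.58 [1.28, 1.89]). Xaf1, which binds the caspase inhibitor XIAP, was at 12.7, 12.7, 9.79 and 23.6 CPM (0.85 [0.60, 1.09]) there and at 3.72, 3.55, 3.07 and 12.6 CPM (1.53 [1.37, 1.70]) in granulocyte-monocyte-like cells. Lgals3bp, a secreted glycoprotein, differed less, at 29.0, 23.6, 20.97 and 38.2 CPM in HSC/MPP-like cells (0.39).

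Mll3SI and Mll4SI, compared with the same control library, gave small ratios. In HSC/MPP-like cells of Mll3SI 23 of 45 members were higher and 22 lower (median 0.00), and 0 passed 2-fold in either direction, against 0.169% of all genes higher and 0.395% lower. In those of Mll4SI 13 were higher and 32 lower (median -0.12 against -0.02 over all genes), again with 0 past 2-fold, against 0.969% and 1.32%. The highest ratios of Mll3SI were those of Isg15 (0.58), Dhx58 (0.52) and Ifi27l2a (0.40), the last being -0.03 in Hashtag2 cells alone. Ifi47 was among the lowest in Mll3SI (-0.40) and Mll4SI (-0.47), and Ifi27l2a (-0.56) and Ifitm1 (-0.50) were lower in Mll4SI.

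In granulocyte-monocyte-like cells of Mll3SI 10 of 38 members were higher (median -0.13 against 0.02 over all genes), with 0 past 2-fold, against 0.138% of all genes higher and 0.25% lower. In those of Mll4SI 9 were higher (median -0.24 against -0.11), 0 rose 2-fold and 2 fell 2-fold, against 0.801% and 1.02%. The 2 were Ifitm1, at 14.1 CPM in control and 6.53 in Mll4SI, and Ifi47, at 19.2 and 9.06 CPM, both just past the 2-fold mark. The GTPases were lower in Mll4SI for 6 of 6 members (median -0.55). Ifitm3 went the other way in Mll4SI, with 218.5 CPM in control and 307.8 (0.49), and Slfn2 and Sp100 were also higher (0.35 and 0.31).

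Beyond the myeloid and stem classes, the members again had their highest level in Mll3/4SI most often: 46 of 48 in dendritic-like, 39 of 48 in T/NK-like, 41 of 47 in erythroid-like, 36 of 47 in basophil/mast-like and 32 of 47 in B-lymphoid-like cells. No share of all genes was computed beside these counts, and depth differed between libraries. T/NK-like cells, for example, held 209735, 86560, 122565 and 444099 UMIs. At least 2-fold higher in Mll3/4SI than in control were 34 of 43 measured members in dendritic-like cells against 9.82% of all genes, and 24 of 40 in T/NK-like cells against 7.64%. The counts were 17 of 45 in erythroid-like cells (1.22% of all genes), 16 of 43 in basophil/mast-like cells (3.05%) and 9 of 43 in B-lymphoid-like cells (4.59%).

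Dendritic-like cells, whose plasmacytoid relatives are known as strong interferon producers, had members that were nearly absent from the other libraries. Isg15 gave 1 UMI in control, 3 in Mll3SI, 0 in Mll4SI, against 87 in Mll3/4SI. Ifit3 gave 0, 0, 0 and 25 UMIs, and Rsad2 0, 0, 0 and 18. Irf7 was at 21.1, 13.5, 20.5 and 279.0 CPM (3.67 [2.76, 4.72]), and Ifitm3 at 285.1, 239.3, 283.9 and 1307 CPM (2.19). Ly6e, abundant in each library, differed least of these, at 625.6, 379.2, 499.4 and 1041 CPM (0.73).

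T/NK-like cells repeated the leading genes with another membrane protein. Ifi27l2a gave 4, 4, 0 and 307 UMIs, Isg15 2, 0, 3 and 76, Irf7 0, 1, 2 and 39, and Rtp4 0, 0, 0 and 41. Bst2 was at 71.5, 34.7, 97.9 and 396.3 CPM (2.45 [1.70, 3.32]). Ifitm3, the gene that led the granulocyte sum, gave 6, 17, 1 and 14 UMIs and followed no such order. Transcripts of 9 granule genes reached 55.4% of their granulocyte-like level in the T/NK-like cells of Mll3SI and at most 1.47% in the other libraries, and the part of that RNA in the Mll3SI values was not tested.

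In erythroid-like cells Ifi27l2a was at 3.04, 3.27, 3.38 and 37.2 CPM (3.24), Oasl2 at 2.43, 3.74, 3.38 and 24.0 CPM (2.87) and Isg15 at 7.59, 10.7, 5.07 and 42.0 CPM (2.32). Ifi27l2a led in basophil/mast-like cells, at 2.19, 3.28, 2.57 and 45.2 CPM (3.86). In B-lymphoid-like cells it was at 70.1, 88.1, 60.0 and 401.5 CPM (2.501) and Isg15 at 6.84, 12.0, 22.0 and 41.6 CPM (2.44), while Oasl2 gave 4, 5, 1 and 0 UMIs. Ifi27l2a was past 2-fold in Mll3/4SI in dendritic-like cells too, at 151.1, 91.4, 68.4 and 554.7 CPM (1.87). The unnamed cells of Mll3/4SI held 866.7 CPM of Ly6e against 125.9 CPM in the unnamed cells of control, but these are different cells. Those of Mll3/4SI lay mostly in clusters 14 and 20, which held 1 and 0 control cells. Ifitm3 went the other way there, at 326.1 CPM in Mll3/4SI against 410.4 CPM in control. Cluster 14 and cluster 20 of Mll3/4SI had summed levels of 3217 and 2924 CPM.

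Within single clusters, where cells are most alike, the direction held. In 22 of 22 clusters with at least 20 cells of both libraries the summed level was higher in Mll3/4SI than in control, with ratios from 1.20 to 2.69 and a median of 1.45. The 3 HSC/MPP-like clusters, numbered 8, 12 and 15, had ratios of 1.43, 1.22 and 1.44. Mll3SI lay above control beyond counting error in 4 and below it in 13 of 21 clusters (0.645 to 1.20, median 0.936). Mll4SI lay above in 2 and below in 13 of 21 (0.772 to 1.26, median 0.959).

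**Figure D3:**
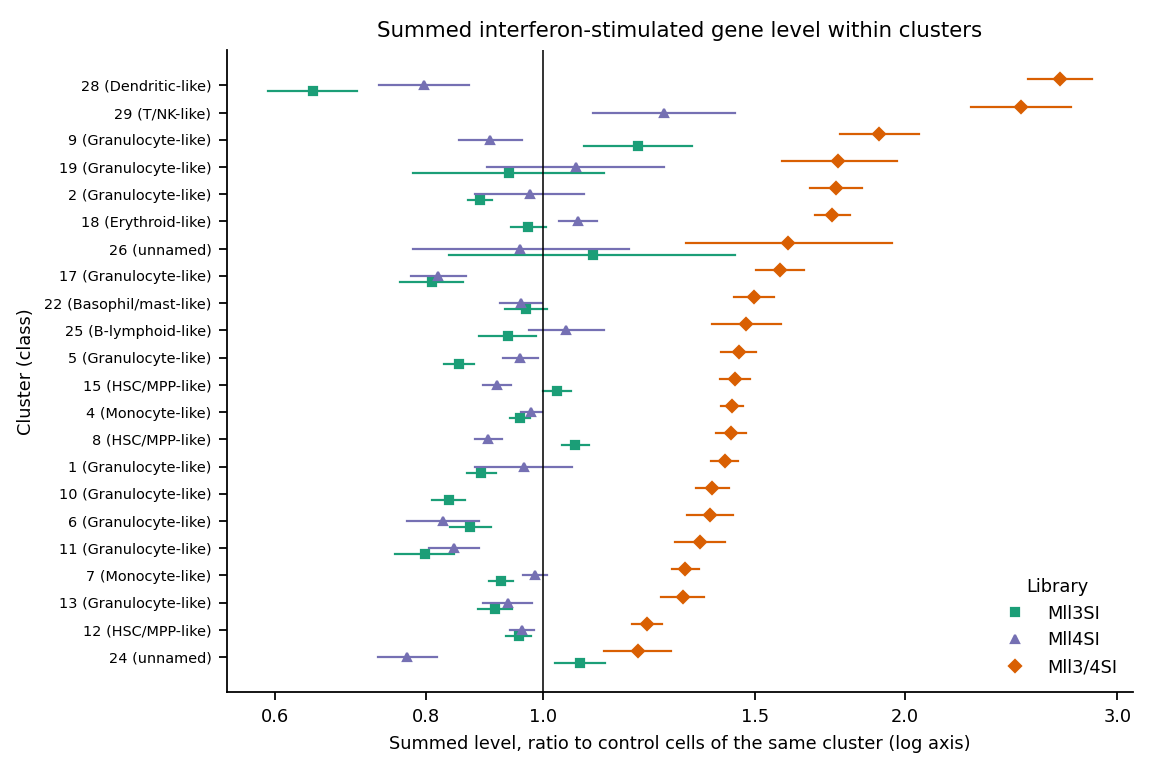
Ratio to control of the summed level of the 48 genes within each cluster that held at least 20 cells of both libraries, with 95% counting intervals and 1 symbol per library. Every Mll3/4SI point lies above 1 (1.20 to 2.69), whereas those of Mll3SI (median 0.936) and Mll4SI (median 0.959) lie on both sides of 1, more of them below it.

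The hashtags split the Mll3/4SI library. Summed levels in its granulocyte-monocyte-like cells were 1447 CPM in 2086 Hashtag1 cells and 2362 CPM in 2129 Hashtag2 cells, a ratio of 1.63 [1.62, 1.65]. In its HSC/MPP-like cells they were 2083 CPM (229 cells) and 2853 CPM (124 cells), a ratio of 1.37 [1.33, 1.41]. For the control library the same ratios were 1.04 (granulocyte-monocyte-like) and 1.16 (HSC/MPP-like), for Mll3SI 0.979 and 1.02, and for Mll4SI 0.897 and 0.964. In 22 of 22 clusters of Mll3/4SI Hashtag2 cells were higher (1.08 to 2.37, median 1.51), against 12 of 19 clusters beyond counting error in control.

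At the level of genes, Hashtag2 cells of Mll3/4SI exceeded its Hashtag1 cells for 38 of 38 measured members in granulocyte-monocyte-like cells (median log2 ratio 0.68) and 44 of 45 in HSC/MPP-like cells (0.63). Control leaned the same way with smaller ratios, for 30 of 38 (0.15) and 41 of 45 members (0.22). In Mll3SI 14 of 38 and 27 of 45 members were higher in Hashtag2, and in Mll4SI 6 of 38 and 19 of 45. Over all genes the medians in these classes were -0.03 and 0.02 in Mll3/4SI, and -0.003 and -0.002 in control. They were -0.01 and 0.006 in Mll3SI, and -0.06 and -0.003 in Mll4SI. The share of all genes higher in Hashtag2 was not computed. At least 2-fold higher in Hashtag2 cells of Mll3/4SI were 10 and 12 members, against 0.267% and 1.15% of all genes. Isg15 stood at 9.86 CPM in Hashtag1 and 33.4 CPM in Hashtag2 granulocyte-monocyte-like cells of Mll3/4SI, against 2.37 and 3.02 CPM in control. Ifi27l2a was at 16.0 and 48.2 CPM there, against 6.32 and 5.10 CPM in control, and Ifitm3 at 398.2 and 769.2 CPM, against 222.3 and 213.8 CPM. In HSC/MPP-like cells Irf7 was at 6.21 and 19.8 CPM, against 1.21 and 3.60 CPM. For each of these genes the lower hashtag of Mll3/4SI was above the higher hashtag of control.

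Set against the same hashtag of control, the summed ratio of Mll3/4SI in granulocyte-monocyte-like cells was 1.30 for Hashtag1 and 2.04 for Hashtag2, and in HSC/MPP-like cells 1.30 and 1.53. Both hashtags of Mll3/4SI were above both hashtags of the other 3 libraries for 19 of 38 members in granulocyte-monocyte-like cells, against 6.04% of all genes, and for 25 of 45 in HSC/MPP-like cells, against 6.25%. Other measures differed between the hashtags of Mll3/4SI too. Cluster 16 held 235 Hashtag1 and 669 Hashtag2 cells and cluster 14 held 217 and 715, whereas cluster 1 held 281 and 168. Monocyte-like cells numbered 220 and 111 (408 and 381 in control), so the pooled granulocyte-monocyte-like values of the hashtags mix different cells. T/NK-like cells numbered 16 in Hashtag1 and 31 in Hashtag2 (6 and 21 in control), Ifng gave 3 and 6 UMIs (0 and 2 in control), and the median mitochondrial share was 1.40% and 1.97% (1.52% and 1.80% in control). Their part in the result was not tested, and whether a hashtag marks an animal is not given.

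**Figure D4:**
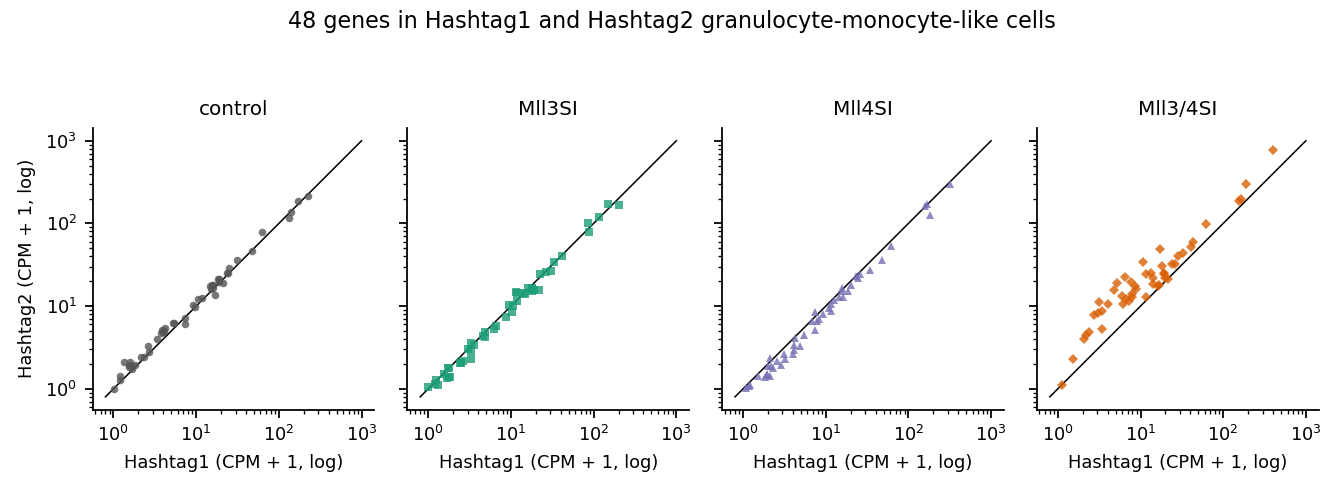
Level of each of the 48 genes in Hashtag1 (x axis) and Hashtag2 (y axis) granulocyte-monocyte-like cells, CPM + 1 on logarithmic axes, with 1 panel per library and a line of equality. For the 38 genes measured in control the points of Mll3/4SI lie above the line, including Isg15 at 9.86 and 33.4 CPM, while those of the other libraries lie closer to it, with 30 of 38 above it in control, 14 in Mll3SI and 6 in Mll4SI.

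Per cell, the difference appeared as a shift with a long upper tail. Each cell was thinned to 3000 UMIs so that depth did not enter, which left out between 5 and 8 HSC/MPP-like and between 23 and 80 granulocyte-monocyte-like cells per library. The median HSC/MPP-like cell had 5, 5, 5 and 6 UMIs of the 48 genes among its 3000, and the median granulocyte-monocyte-like cell 3, 3, 3 and 4. Unthinned, the median share was 0.167%, 0.168%, 0.151% and 0.208% in HSC/MPP-like and 0.101%, 0.0868%, 0.109% and 0.148% in granulocyte-monocyte-like cells. Cells above the 95th percentile of control made up 2.996%, 3.94% and 1.79% of the HSC/MPP-like cells of control, Mll3SI and Mll4SI, and 12.96% [9.65, 16.9] of those of Mll3/4SI. For granulocyte-monocyte-like cells the shares were 2.95%, 2.09%, 5.93% and 19.7% [18.5, 20.9].

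Hashtag2 cells filled more of that tail. At least 10 UMIs of the set among 3000 were found in 24.9% of Hashtag2 and 6.85% of Hashtag1 granulocyte-monocyte-like cells of Mll3/4SI, against 2.35% and 1.53% in control. In HSC/MPP-like cells the shares were 36.6% and 18.5% in Mll3/4SI and 12.9% and 7.43% in control. Among T/NK-like cells of Mll3/4SI 22 (47.8% [32.9, 63.1]) lay above the control percentile, against 1 in control, 0 in Mll3SI and 2 in Mll4SI. Of the 30 dendritic-like cells of Mll3/4SI 14 had too few UMIs to be thinned. The other 16 had a median share of 0.483%, against 0.35% in 38 control cells, a smaller difference than that of the summed level. Above the control percentile lay 6 of these 16, against 2 in control, 0 in Mll3SI and 1 in Mll4SI.

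**Figure D5:**
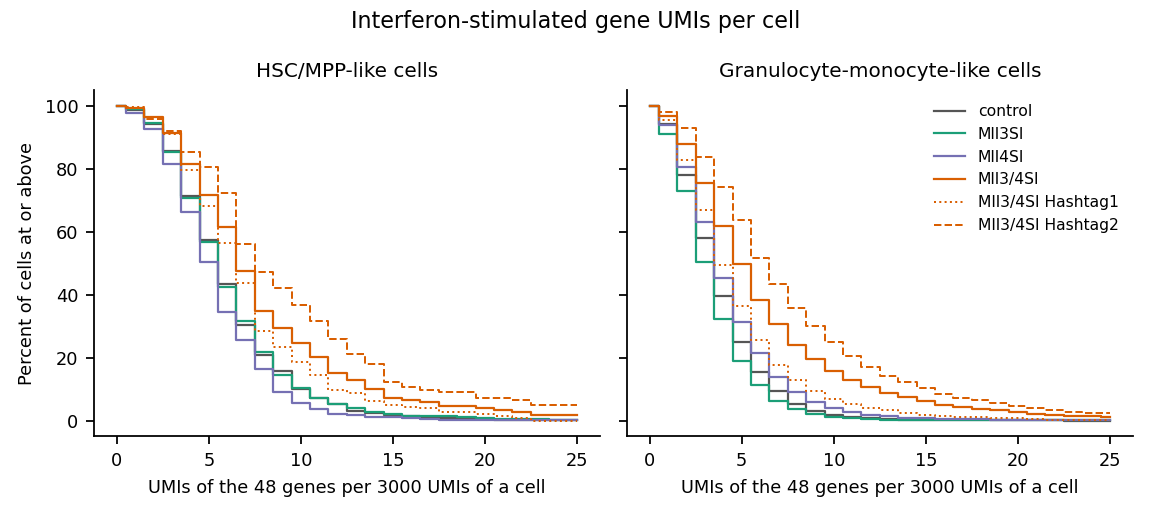
Percent of HSC/MPP-like and granulocyte-monocyte-like cells with at least a given number of UMIs of the 48 genes after thinning to 3000 UMIs per cell. There is 1 solid line per library, and for Mll3/4SI also a dotted line for Hashtag1 and a dashed line for Hashtag2 cells. At 10 UMIs the solid Mll3/4SI line stands at 24.5% and 15.9%, against 10.0% and 1.91% in control.

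The rest of the interferon pathway was read from lists of 111 other genes. The interferon genes themselves were almost silent: 19 type I and type III genes together gave 9 UMIs in control, 20 in Mll3SI, 26 in Mll4SI, against 19 in Mll3/4SI over all kept cells. Most came from Ifnk (8, 18, 23 and 11), and Ifnb1 and each Ifna gene had 0, which allows up to 3 UMIs per library. Ifng, the type II interferon, gave 2, 0, 3 and 9 UMIs, each of them in T/NK-like cells. Such counts cannot order the libraries, and a Kit+ sort leaves out most mature immune cells.

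Receptor genes did not follow the members. In granulocyte-monocyte-like cells 0 of 6 were higher in Mll3/4SI (median log2 ratio -0.32) and in HSC/MPP-like cells 1 of 5 (-0.07). Ifnar1, a chain of the type I receptor, was at 24.6, 24.7, 23.9 and 20.7 CPM in HSC/MPP-like cells (-0.24) and at 17.3, 17.1, 18.0 and 13.5 CPM in granulocyte-monocyte-like cells (-0.33). Its partner Ifnar2 was at 135.9, 138.2, 132.7 and 134.4 CPM (-0.02) and at 126.2, 132.4, 118.5 and 101.4 CPM (-0.31). Ifngr1, of the interferon gamma receptor, was highest in Mll4SI among HSC/MPP-like cells, at 163.1, 186.3, 248.2 and 172.0 CPM. None of these receptors passed 2-fold.

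Irf9, which binds the response element in a complex with Stat2 and is itself induced by interferon, was higher in Mll3/4SI by less than 2-fold. It was at 24.0, 25.5, 22.5 and 33.4 CPM in HSC/MPP-like cells (0.46) and at 16.2, 14.7, 18.5 and 25.6 CPM in granulocyte-monocyte-like cells (0.62). Over the 11 kinases and transcription factors 7 and 6 were higher, with medians of 0.05 and 0.11. Of the feedback list 3 of 7 and 3 of 6 were higher, and Isg20, an exonuclease of RNA placed in it, rose from 5.01 to 12.8 CPM in HSC/MPP-like cells (1.20) and from 2.80 to 6.86 CPM in granulocyte-monocyte-like cells (1.05). Nucleic acid sensors and adaptors were higher for 4 of 8 and 2 of 9, with medians of 0.00 and -0.10.

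Other interferon-induced genes outside the set moved in the same direction with smaller ratios. In HSC/MPP-like cells 29 of 38 were higher in Mll3/4SI (median 0.19) and 3 rose 2-fold: Ifi206 (1.51), Iigp1 (1.44), a GTPase at 5.01, 4.10, 4.17 and 15.3 CPM, and Ifi209 (1.18). Ifi209 was at 10.8, 11.2, 33.7 and 25.7 CPM, so Mll4SI was its highest library (1.56). In granulocyte-monocyte-like cells 28 of 39 were higher (median 0.30). There Parp12 (1.19), Trim30d (1.16) and Ddx60 (1.09) rose, and Ifi30, a lysosomal thiol reductase, fell in Mll3/4SI (-1.04) and Mll4SI (-1.51). Ly6a, the stem cell antigen Sca-1, was at 11.4, 13.5, 4.85 and 17.5 CPM in HSC/MPP-like cells and fell in Mll4SI (-1.08).

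Promoter letters did not separate the members that rose. Of the members with a window and a measured control level, the response element core was present in 4 of 7 that rose 2-fold in HSC/MPP-like cells of Mll3/4SI and in 15 of 29 that did not, and in 5 of 8 against 11 of 23 in granulocyte-monocyte-like cells. Gbp3, with 2 overlapping matches from 45 bases before its start, had ratios of -0.04 and -0.50, while Isg15, with 3, had 2.01 and 2.64.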

How the data were processed

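The authors deposited UMI counts per gene or antibody and cell barcode, 1 matrix per library, produced per the file headers by Cell Ranger 7.1.0, with mm10 named in the submitters' processing notes. Cell-calling settings and filters are not given in the sources used here. Gene UMIs summed to 140546094, 141489749, 177753607 and 158323616 for control, Mll3SI, Mll4SI and Mll3/4SI. Pairs of libraries shared between 16 and 29 barcodes.

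Groups came from the sample titles. Python 3.11.15, numpy 2.4.6, pandas 2.3.3, scipy 1.17.1, scanpy 1.11.5, scikit-learn 1.9.0, leidenalg 0.10.2, igraph 0.11.9 and matplotlib 3.10.9 were used. A cell passed with 500 or more genes, 1000 or more UMIs and no more than 10% mitochondrial UMIs, and the highest Scrublet scores were removed as doublets at 0.8% per 1000 cells (409, 594, 1001 and 411 cells in the order above). Cells above both hashtag thresholds (121 and 306 UMIs) still numbered 154, 382, 570 and 175 and were removed in an alternative. Clustering used 2000 variable genes without the members, pathway, marker and sex genes, 30 principal components, 15 neighbours and Leiden resolution 1, and gave 32 clusters. A cluster was named where at least 3 markers of a class led the next class by at least 1. No other class could have as many markers among the cluster's top 10 genes, unless no class had any there. A cluster with few UMIs per cell for its libraries and no marker of the class among those genes also stayed unnamed. The rule was set after the clusters were seen.

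UMIs were summed per class and library and expressed as CPM. Ratios added 1 CPM and were read for genes of at least 1 CPM in control. With 1 library per group there is no test, and "rose" or "fell" marks a difference of at least 2-fold. The scripts were tested on simulated data. Members, pathway lists and role groups were chosen with earlier results of these data known. Named genes were, at 10 CPM or more in any library, the 10 highest and 3 lowest ratios of Mll3/4SI in HSC/MPP-like and granulocyte-monocyte-like cells, the 3 highest and 3 lowest of Mll3SI and Mll4SI in HSC/MPP-like cells, the 5 most abundant members, Ifit3 and Ifit3b, the receptors, Irf9 and pathway genes past 2-fold, and other members were named after their values were seen, to describe each role group. One further pathway gene under this rule is not reported here. All 48 gene identifiers were found in the GENCODE M21 annotation of GRCm38. Promoter sequences are from RefSeq.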

Additional observations from a re-analysis of the deposited data

How the results depend on the processing

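No paired analysis was possible because each group has 1 library. None of the alternatives reversed a direction in the summary values of Mll3/4SI or in the named genes past 2-fold that were followed singly. The median log2 ratio of Mll3SI in HSC/MPP-like cells, 0.0014, changed sign and ran from -0.033 to 0.092. The median log2 ratio of Mll3/4SI in HSC/MPP-like cells (0.51) was 0.77 with cells classed by their nearest control cells, 0.76 in Hashtag2 cells and 0.27 over members of at least 10 CPM in control. The count of 11 members past 2-fold there was 18 by nearest control cells, 17 in Hashtag2 cells and 17 with cluster 20 counted as HSC/MPP-like. It was 2 both with 10 CPM added and at 10 CPM or more in control. Cluster 20 held 689 Mll3/4SI cells and 0 control cells. No share of all genes was computed beside the counts of any alternative, here or in granulocyte-monocyte-like cells, so larger counts are no added support. The summed ratio (1.35) was 1.32 without Ifitm3, 1.30 in Hashtag1 and 1.53 in Hashtag2 cells.

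In granulocyte-monocyte-like cells the median for Mll3/4SI (0.52) was 0.60 with size factors, 0.37 with 10 CPM added, 0.80 at Leiden resolution 2, 0.63 by nearest control cells, 0.23 in Hashtag1 and 0.74 in Hashtag2 cells. It was 0.62 over members averaging 1 CPM or more, 0.41 at 10 CPM or more in control and 0.61 over members with any UMI. The count of 11 was 3 with 10 CPM added, 6 in Hashtag1 cells, 17 over those averaging 1 CPM or more, 1 at 10 CPM or more in control and 18 with any UMI. The summed ratio (1.68) was 1.44 without Ifitm3, 1.60 without the 5 most abundant members, 1.30 in Hashtag1 and 2.04 in Hashtag2 cells. The Mll4SI median (-0.24) was -0.10 with 10 CPM added, -0.0355 in Hashtag1 and -0.43 in Hashtag2 cells. Fewer members enter at 10 CPM or more, and added CPM shrinks the ratio of rare genes. Under the average and any-UMI settings a member can enter through Mll3/4SI, where it is high. Rtp4, at 0.743 CPM in control and 11.02 in Mll3/4SI, is such a member. The larger values under these settings are therefore no added support, and no share of all genes was computed for them. The cause of the other shifts was not tested.

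The alternatives on cluster 20 and on the summed level were chosen after the data were seen. Single genes were followed through the alternatives only where they had the highest or lowest ratios under the naming rule. Among those past 2-fold in Mll3/4SI, most were lost with 10 CPM added. In HSC/MPP-like cells these were Irf7 (0.72), Ifi44 (0.90), Oasl2 (0.79), Usp18 (0.54) and Rtp4 (0.73). In granulocyte-monocyte-like cells they were Oasl2 (0.99), Oas3 (0.72), Xaf1 (0.72), Oas2 (0.58) and Rtp4 (0.97). Rtp4 (0.95 at resolution 2) and Usp18 (0.91 in Hashtag1 cells) also dropped under 2-fold in HSC/MPP-like cells. In granulocyte-monocyte-like cells Xaf1 (0.87 in Hashtag1 cells) and Ifitm3 (0.84 in Hashtag1 cells and 0.73 over shared clusters) did. Other members past 2-fold, such as Zbp1 in both classes, were not followed singly, so more calls may depend on the setting. Parp14 in granulocyte-monocyte-like cells passed 2-fold under 5 alternatives, and Oas1a, Slfn2 and Xaf1 in HSC/MPP-like cells and Dhx58 in those of Mll3SI (1.03 in Hashtag1 cells) under 1 or 2. For members below about 1 CPM, depth limits what can be compared.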
